A study of Homo sapiens with 115 samples.

Results

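The 7 RNA entries described here are 3 copies of 7SL RNA (RN7SL1, RN7SL2 and RN7SL3), the single entry of 7SK RNA (RN7SK) and 3 copies of 18S ribosomal RNA (RNA18SN1, RNA18SN3 and RNA18SN4). They were found by name among the 43386 entries of a gene count table of single HCT116 cells, and all 7 held counts. They were chosen with their measured levels (CPM, counts scaled to the cell's total) by stage and line already known, so their own levels are described here without a test. HCT116 is a human colorectal cancer cell line, and the study followed it through and after one dose of ionizing radiation (8 Gy). Single cells were picked by pipette under a microscope, and those analysed here were 72 of a p53+/+ line and 43 of a p53-/- line. The untreated stage [N] (Day 0) had 6 p53+/+ and 7 p53-/- cells, which the labels also mark with 8Gy and the study describes as unirradiated. The pre-budding persister stage [P] (Day 7) had 6 and 11 cells, and the budding persister stage [B] (Day 10) had 28 and 8 cells. The budded progenies [S] (Day 10) had 21 and 9 cells, and the repopulated cells [R] (Day 30) had 11 and 8 cells, in the same order of lines. Each genotype is a single line, so a difference between genotypes and a difference between these 2 lines cannot be told apart, and cells of one line are not replicates of a condition.

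7SL RNA is the scaffold of the signal recognition particle, which binds signal sequences as they leave the ribosome and brings the ribosome to the endoplasmic reticulum. 7SK RNA, with MEPCE, LARP7 and the HEXIM proteins, holds the elongation kinase P-TEFb in an inactive complex, and release of P-TEFb lets RNA polymerase II leave promoter-proximal pauses. 18S rRNA is the RNA of the small ribosomal subunit and is cut from a long precursor (the 45S transcript) made by RNA polymerase I, whereas 7SL and 7SK are made by RNA polymerase III. None of the 3 mature RNAs carries the long poly(A) tail of an mRNA, and all 3 are abundant in growing cells.

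The 3 copies of 7SL differ at few bases, and those differences are all that could assign a read to one copy. They were located with RefSeq on GRCh38, with RN7SL1 at chr14:49586580-49586878 on the plus strand, RN7SL2 at chr14:49862551-49862849 on the minus strand and RN7SL3 at chr14:49853616-49853914 on the minus strand. Each is 299 bases long, and each spans the whole noncoding gene, with no intron and no UTR. RN7SL1 is 98.7% identical to RN7SL2 and 97.7% identical to RN7SL3, and RN7SL2 and RN7SL3 are 96.3% identical. Of the 200 stretches of 100 bases in a copy, 47% of those in RN7SL1 and RN7SL2 and 88% of those in RN7SL3 occur in no other of the 3 copies. Further 7SL entries of the count table, such as RN7SL832P, are not part of this comparison.

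The 18S copies, read from RefSeq, are shown at the single position where they differ. RNA18SN3 (chr21:8392666-8394534), RNA18SN1 (chr21:8436876-8438744) and RNA18SN4 (an unlocalised chromosome 22 scaffold, KI270733v1, positions 125931 to 127799) are each 1869 bases long, on the plus strand of GRCh38. RNA18SN3 and RNA18SN4 are identical throughout, and RNA18SN1 differs from both by G60A, the capital in bases 45 to 75 below.
RNA18SN1: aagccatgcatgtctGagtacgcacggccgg
RNA18SN4: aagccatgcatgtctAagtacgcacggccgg
No stretch of 100 bases was particular to RNA18SN3 or RNA18SN4, and 60 of the 1770 stretches of RNA18SN1 (3.39%) were. RNA18SN2, an entry outside the 7, is identical to RNA18SN3 and RNA18SN4 as well. How the counting divided reads that match several copies is not stated, so a value for one 18S copy is uncertain. The sums over the member copies are used below as 7SL (3 entries) and 18S (3 entries). The 18S sum leaves out RNA18SN2 (mean 18.7 CPM) and is therefore a part of the 18S counts. RN7SK is a single noncoding gene of 332 bases at chr6:52995620-52995951 on the plus strand, and its last 60 bases are shown because they hold its run of 4 T, the usual stop of RNA polymerase III.
RN7SK: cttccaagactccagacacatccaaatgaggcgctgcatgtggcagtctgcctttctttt
The longest run of A is 4 bases in the 7SL copies, 3 bases in RN7SK and 6 bases in the 18S copies.

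Total counts per cell ran from 4056329 to 100173192 (median 34238237) and detected genes from 5911 to 19258 (median 14417), with 5 cells under 10000 genes. The epithelial genes EPCAM, KRT8, KRT18 and KRT19 were detected in every cell, and CD3E had no count in any cell. CDH1, the other epithelial gene examined, had stage medians of 18.7 to 54.1 CPM and was not detected in every cell. Of the other fibroblast, leukocyte and endothelial markers examined, only COL1A1 had a stage median above 0 (highest 4.95 CPM). The 7 entries together took 0.320% of all counts, with a range over cells of 0.00513% to 1.95%. Molecules were not tagged, so intervals and limits given here cover counting error only. Each cell's title opens with a number that cells share, and 3 of these 19 title numbers stood apart: 1206, 1219 and that of 5 p53+/+ cells of [B]. Their 17 cells, all in [P], [B] or [S], had a median 7SL level of 427 CPM, against 2811 CPM in the other 66 cells of those stages, and a median 18S level of 0.605 CPM, against 188 CPM. What the title numbers stand for is not given in the sources used here, and the main stage and line differences of 7SL, 7SK and 18S are given below with and without these cells. The 3 title numbers were picked out after their low levels were seen, and they hold no cell of [N]. Leaving them out therefore tends to raise the differences of 7SL and 18S from [N], and the values without them are no independent check. The levels by group, the counts of cells above [N], the values of single copies and of other ribosomal entries, and the correlations include the cells of these title numbers. How many other entries have as many cells above [N] was not counted.

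7SL was low in [N], higher in [P], highest in [B] and [S] and intermediate in [R]. In [N], the 6 p53+/+ cells ran from 103.1 to 820 CPM of 7SL with a median of 207 CPM. The 7 p53-/- cells of [N] ran from 52.5 to 1287 CPM with a median of 470 CPM. The cells of the 2 lines therefore overlapped widely before irradiation. In [P], 7SL ran from 261 to 1734 CPM in p53+/+ cells (median 640 CPM) and from 170 to 4330 CPM in p53-/- cells (median 895 CPM). Of these, 3 of 6 p53+/+ cells and 4 of 11 p53-/- cells lay above the highest [N] cell of their line, and none lay below the lowest. In [B], 7SL ran from 77.2 to 15745 CPM in p53+/+ cells (median 1879 CPM) and from 118 to 18179 CPM in p53-/- cells (median 8308 CPM). In [S], the range was 51.1 to 18926 CPM in p53+/+ cells (median 3519 CPM) and 327 to 16530 CPM in p53-/- cells (median 3173 CPM). Most cells of both stages lay above every [N] cell of their line, 20 of 28 and 5 of 8 in [B] and 18 of 21 and 6 of 9 in [S], but 1 p53+/+ cell of each stage lay below the lowest. In [R], 7SL was narrower, from 689 to 1989 CPM in p53+/+ cells (median 1461 CPM) and from 772 to 8666 CPM in p53-/- cells (median 1892 CPM). The highest p53-/- value of [R] came from a single cell, and the next highest had 2347 CPM.

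**Figure D1:**
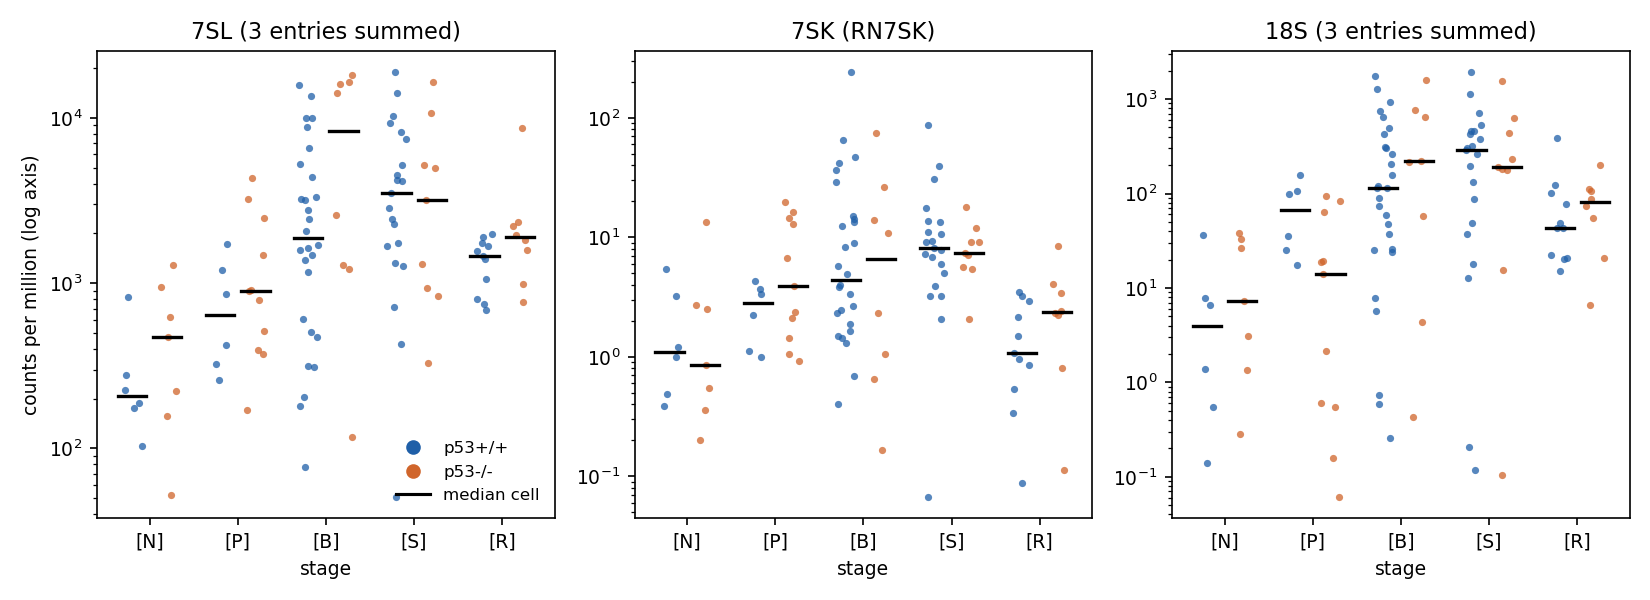
Level of 7SL, 7SK and 18S in each cell (CPM, log axes that differ between panels) by stage, with blue points for p53+/+ cells, orange points for p53-/- cells and a bar at the median cell. The 1 [B] cell with no RN7SK count is not drawn; 7SL medians rise from 207 and 470 CPM in [N] to 3519 and 3173 CPM in [S] (p53+/+ and p53-/-).

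On the log2(CPM + 1) scale, the median 7SL level of a line rose from [N] to [P] by 1.23 ± 0.43 (mean and SD, n = 2 lines). The difference from [N] was 3.43 ± 0.36 in [B], 3.42 ± 0.94 in [S] and 2.41 ± 0.57 in [R], and both lines were above [N] at all 4 stages. Without the 3 title numbers that stood apart, it was 1.23 in [P], 4.37 in [B] and 3.71 in [S]. From [S] to [R], 7SL fell by 1.01 ± 0.37, and by 1.30 without those cells. From [B] to [S] the lines went opposite ways, with a difference of 0.91 in p53+/+ and -0.92 in p53-/- cells. The p53-/- line was above the p53+/+ line in 4 of 5 stages, by 0.73 ± 0.72 on average (SD, n = 5 stages), which is about as large as its spread, and by 0.86 without the 3 title numbers. The smallest of these line differences was -0.15 in [S] and the largest 1.69 in [B].

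All 3 copies of 7SL were above [N] in both lines at each later stage, but by different amounts. RN7SL1 had medians of 109 and 237 CPM in [N], 834 and 3674 CPM in [B], 1456 and 1522 CPM in [S] and 676 and 889 CPM in [R] (p53+/+ and p53-/-). RN7SL2 had medians of 98.6 and 222 CPM in [N], 885 and 4075 CPM in [B], 1881 and 1611 CPM in [S] and 748 and 945 CPM in [R]. In [P], however, RN7SL2 reached 277 CPM in p53+/+ and 240 CPM in p53-/- cells, which for the p53-/- line was a difference from [N] of only 0.12 on the log2(CPM + 1) scale. RN7SL3, the copy that differs most from the other 2, had medians of 3.74 and 10.8 CPM in [N], 31.7 and 47.1 CPM in [P] and 91.8 and 256 CPM in [B]. It then had 106.5 and 42.1 CPM in [S] and 32.8 and 52.0 CPM in [R]. From [S] to [R] in p53-/- cells, the difference of RN7SL3 was therefore 0.29 on the log2(CPM + 1) scale, while those of RN7SL1 and RN7SL2 were -0.78 and -0.77. All 11 p53+/+ cells of [R] had more RN7SL3 than the highest [N] cell of that line (14.8 CPM), and so had 25 of 28 [B] and 20 of 21 [S] cells. In the p53-/- line, where the highest [N] cell had 37.9 CPM, 7 of 8 [B], 6 of 9 [S] and 5 of 8 [R] cells lay above it. Across all cells, log2(CPM + 1) of RN7SL1 correlated with that of RN7SL3 (r = 0.95) and of RN7SL2 (r = 0.91), a description of entries that share most of their sequence and their libraries.

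RN7SL1 and RN7SL2, which have the same length, were counted about equally in most cells. RN7SL2 took 35 to 65% of their joint counts in all but 10 cells, and the median cell had 48.7%. The 10 cells, each with a smaller share, all belonged to the 3 title numbers that stood apart, with 5 in title number 1206 and 2 in 1219. The lowest was a [B] p53+/+ cell with 4 counts of RN7SL2 beside 18359 of RN7SL1, a share of 0.0218% (95% Wilson interval 0.00847 to 0.0560%). RN7SL3 took 0.852 to 9.32% of all 7SL counts (median 3.47%). The median share was lowest before irradiation (2.29%), highest in the persisters, with 4.62% in [P] and 4.24% in [B], and then 3.28% in [S] and 2.93% in [R]. The p53+/+ cells of [N], from 1.74 to 2.12%, did not overlap with those of [P], from 2.34 to 5.997%. The p53-/- cells did overlap, from 2.29 to 4.27% in [N] and from 1.95 to 8.90% in [P]. How often other shares or entries separate between the same groups was not counted, so nothing is read from this.

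**Figure D2:**
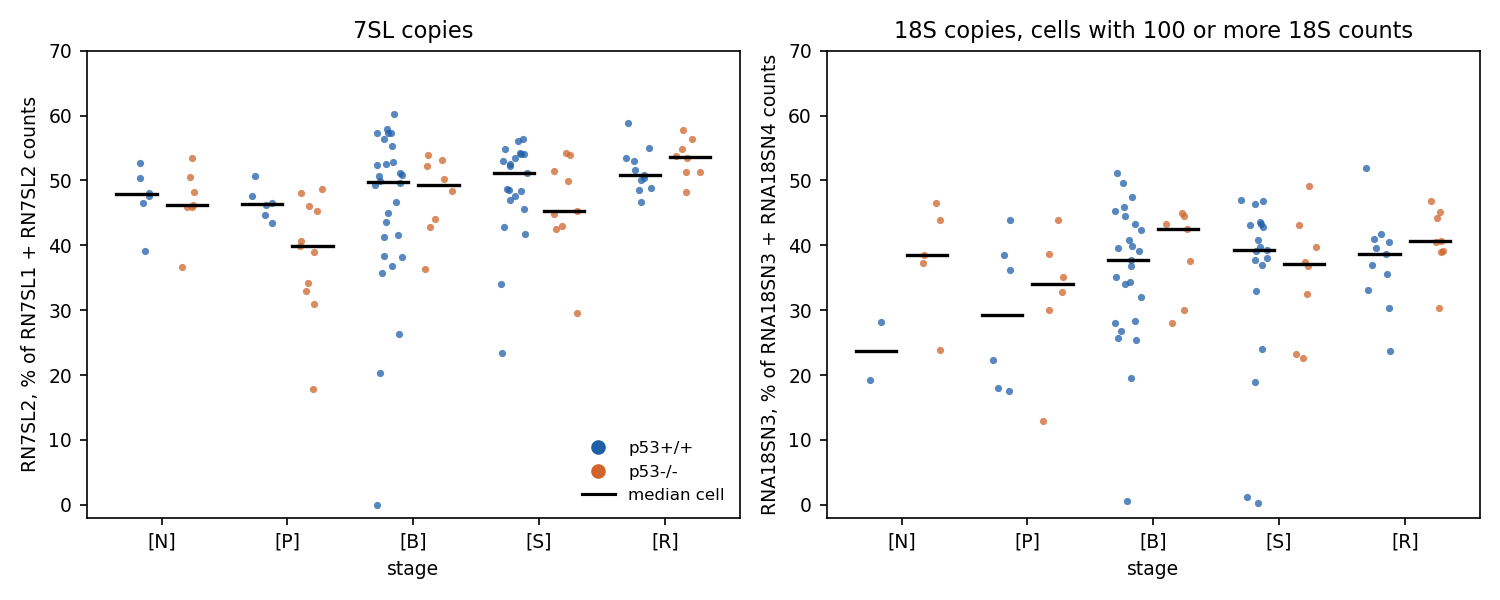
Share of RN7SL2 in the joint counts of RN7SL1 and RN7SL2 (left, all cells) and share of RNA18SN3 in the joint counts of RNA18SN3 and RNA18SN4 (right, the 97 cells with at least 100 counts of 18S), in percent by stage and line, with a bar at the median cell. Most cells lie between 35 and 65% on the left and between 20 and 60% on the right, and single cells lie near 0 in both panels.

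7SK was counted at far fewer reads than 7SL, with a median of 122 counts of RN7SK per cell and a range of 0 to 9228. In [N], RN7SK ran from 0.386 to 5.46 CPM in p53+/+ cells (median 1.10 CPM) and from 0.201 to 13.4 CPM in p53-/- cells (median 0.861 CPM). In [P], it ran from 0.992 to 4.32 CPM (median 2.79 CPM) and from 0.927 to 19.7 CPM (median 3.92 CPM), in the same order of lines. No p53+/+ cell of [P] exceeded the highest [N] cell, so the groups overlapped fully in that line. In [B], RN7SK ran from 0 to 242 CPM in p53+/+ cells (median 4.42 CPM) and from 0.166 to 75.2 CPM in p53-/- cells (median 6.55 CPM). The [B] cell with no RN7SK count had the smallest total (4056329), where a count of 0 allows up to 0.740 CPM (3 counts). In [S], it ran from 0.0676 to 87.3 CPM in p53+/+ cells (median 8.18 CPM) and from 2.07 to 18.02 CPM in p53-/- cells (median 7.44 CPM). Above the highest [N] cell of their line were 13 of 28 and 3 of 8 cells of [B], and 15 of 21 and 1 of 9 cells of [S]. In [R], RN7SK ran from 0.0883 to 3.52 CPM (median 1.07 CPM) and from 0.113 to 8.45 CPM (median 2.36 CPM), and no [R] cell of either line exceeded the highest [N] cell.

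The median RN7SK level of a line thus rose from [N] by 1.12 ± 0.40 in [P], 1.56 ± 0.27 in [B] and 2.16 ± 0.04 in [S] on the log2(CPM + 1) scale (mean and SD, n = 2 lines). In [R] the difference from [N] was 0.41 ± 0.62, which is smaller than its spread, and the p53+/+ line alone had -0.02. From [S] to [R], RN7SK fell by 1.74 ± 0.58, and by 1.84 without the 3 title numbers that stood apart. Leaving out the 3 title numbers that stood apart gave 1.44 in [P], 2.18 in [B] and 2.26 in [S]. Of the repopulated cells, 2 p53+/+ cells and 1 p53-/- cell had less RN7SK than the lowest [N] cell of their line, and the p53-/- line alone had a difference from [N] of 0.85. The lines differed in RN7SK by 0.20 ± 0.36 (p53-/- minus p53+/+, SD, n = 5 stages), less than the spread over stages, and by 0.46 without those title numbers. RN7SK lies so close to the pseudocount that these differences shrink with a larger one, to 0.47 in [B] and 0.70 in [S] at log2(CPM + 10).

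18S had the widest span of the 3 families. In [N], 18S ran from 0.141 to 36.0 CPM in p53+/+ cells (median 3.97 CPM) and from 0.283 to 38.1 CPM in p53-/- cells (median 7.22 CPM). In [P], it ran from 17.6 to 159 CPM in p53+/+ cells (median 67.2 CPM) and from 0.0617 to 93.1 CPM in p53-/- cells (median 14.04 CPM). The p53-/- cells of [P] spread over the whole range of [N] and beyond it, with 3 of 11 above and 2 of 11 below. In [B], 18S ran from 0.260 to 1771 CPM in p53+/+ cells (median 114.7 CPM) and from 0.432 to 1580 CPM in p53-/- cells (median 218 CPM). In [S], it ran from 0.118 to 1936 CPM (median 287 CPM) and from 0.105 to 1561 CPM (median 193 CPM). Cells above the highest [N] cell of their line made up 20 of 28 and 6 of 8 in [B] and 17 of 21 and 7 of 9 in [S], while 1 cell of [S] in each line lay below the lowest. In [R], 18S ran from 15.2 to 383 CPM in p53+/+ cells (median 43.2 CPM) and from 6.57 to 201 CPM in p53-/- cells (median 80.9 CPM).

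Relative to [N], the median 18S level of a line differed by 4.75 ± 0.02 in [B], 5.32 ± 1.08 in [S] and 3.34 ± 0.05 in [R] on the log2(CPM + 1) scale (mean and SD, n = 2 lines). In [P] the difference was 2.35 ± 2.09, with 3.83 in the p53+/+ and 0.87 in the p53-/- line, so the mean was little larger than its spread. Without the 3 title numbers that stood apart, it was 2.57 in [P], 5.07 in [B] and 5.45 in [S]. From [S] to [R], 18S fell by 1.98 ± 1.03, and by 2.11 without those title numbers. The lines did not differ beyond their spread over stages (0.04 ± 1.31, p53-/- minus p53+/+, n = 5 stages, and 0.0038 without those title numbers). At a larger pseudocount of 10 CPM, the differences of 18S from [N] were 3.46 in [B], 3.996 in [S] and 2.17 in [R].

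All 3 copies of 18S followed each other, with correlations of log2(CPM + 1) between 0.94 and 0.95 over all cells for entries that are identical or differ at 1 base. RNA18SN4 had medians of 1.88 and 3.42 CPM in [N], 59.8 and 123 CPM in [B], 145 and 127 CPM in [S] and 24.7 and 38.2 CPM in [R] (p53+/+ and p53-/-). RNA18SN3 had medians of 0.888 and 2.98 CPM in [N], 33.2 and 59.5 CPM in [B], 88.8 and 51.3 CPM in [S] and 13.1 and 29.9 CPM in [R]. RNA18SN1 had medians of 0.549 and 0.824 CPM in [N], 14.9 and 31.3 CPM in [B], 27.9 and 21.4 CPM in [S] and 7.42 and 12.9 CPM in [R]. All 3 copies were thus ordered [N] below [R] below [B] in both lines. In [P] the copies parted in the p53-/- line. Their differences from [N] there, on the log2(CPM + 1) scale, were 1.02 for RNA18SN4, 0.07 for RNA18SN1 and -0.23 for RNA18SN3. In the p53+/+ line all 3 copies were higher in [P], by 3.89, 2.48 and 3.07 in the same order. In the 97 cells with at least 100 counts of 18S, RNA18SN3 took a median of 38.5% of the joint counts of the identical RNA18SN3 and RNA18SN4, and 88 of these cells had 20 to 60%. In 3 cells of [B] or [S] of the p53+/+ line the split was extreme. One [S] cell had 8 counts of RNA18SN3 beside 2985 of RNA18SN4 (0.267%, 95% Wilson interval 0.136 to 0.527%), a [B] cell had 4 beside 629 and another [S] cell had 4 beside 346. Because the pair has no base to tell them apart, such a split cannot be read as use of one copy.

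Counting members whose median cell differed at least 2-fold from [N] on the log2(CPM + 1) scale in both lines gave 3 of 7 in [P] (RN7SL1, RN7SL3 and RNA18SN4), where 4.46% of the 13676 entries with a mean of at least 1 CPM did so. It gave 7 of 7 in [B] (background 4.61%) and 7 of 7 in [S] (background 1.97%). In [R] it was 6 of 7, all but RN7SK (background 3.15%). From [S] to [R], RN7SK and RNA18SN4 were at least 2-fold lower in both lines (background 2.82%). Ordered by the mean difference from [N], RNA18SN4, which has the sequence of RNA18SN3, stood at place 1 in [B] and in [S]. RN7SK stood at place 355 in [B] and 35 in [S], and the other members stood between these places. These counts and places describe values that the choice of the 7 entries rested on, and nothing is read from them.

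The other ribosomal entries did not all follow 18S. The 28S entries, the RNA of the large subunit cut from the same precursor, ran from 33.3 to 718 CPM in p53+/+ cells of [N] (median 155 CPM) and from 2.35 to 3387 CPM in p53-/- cells (median 204 CPM). Their median was lower in [P], at 65.4 and 92.2 CPM, and their difference from [N] there was -1.19 ± 0.08 on the log2(CPM + 1) scale (n = 2 lines). The 18S sum was higher there in both lines, though in the p53-/- line RNA18SN4 was higher and RNA18SN3 was not. In [B] and [S] the 28S differences from [N] were 1.08 ± 1.31 and 1.24 ± 0.59, and in [R] -0.62 ± 0.45. In both lines and at each stage after irradiation, the median within-cell ratio of 18S to 28S was above that of [N]. This log2 ratio, not corrected for lengths or numbers of entries, had a median of -4.95 before irradiation. It was -1.83 in [P], -1.47 in [B] and -1.30 in the repopulated cells. In [S] it was 0.21 in p53+/+ and -2.64 in p53-/- cells. The cells overlapped, and p53-/- cells ran from -11.4 to 0.77 in [N] and from -9.85 to -0.49 in [P]. 18S exceeded 28S in 1 of 6 and 2 of 7 cells of [N] (p53+/+ and p53-/-). In [P] it did so in 2 of 6 and 0 of 11 cells, and in [R] in 3 of 11 and 0 of 8. In [B] it did so in 9 of 28 and 2 of 8 cells, and in [S] in 11 of 21 and 4 of 9. The 45S precursor entries, whose span includes the 18S sequence, were above [N] at each stage, by 1.85 ± 0.84 in [P], 2.74 ± 0.73 in [B] and 3.52 ± 0.28 in [S], and by 1.73 ± 0.41 in the repopulated cells.

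**Figure D3:**
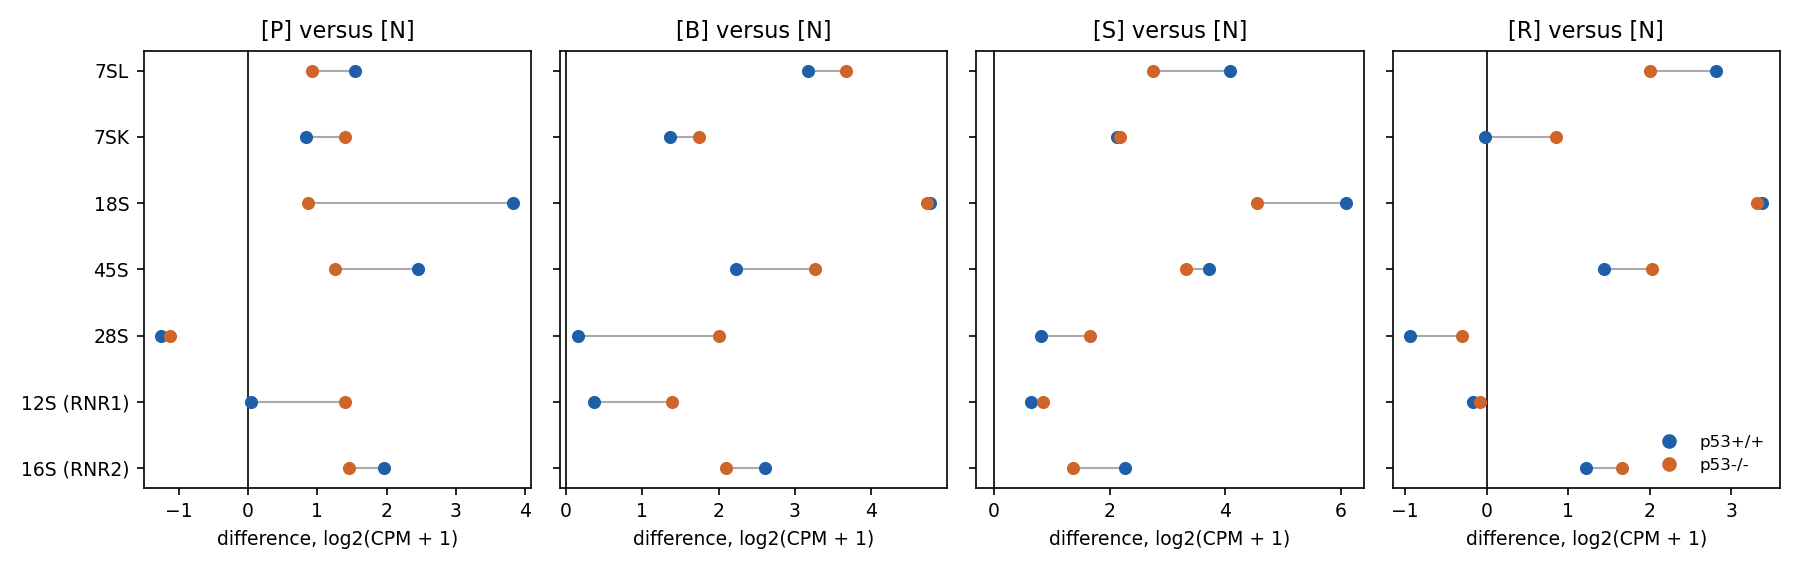
Difference of a line's median from [N] on the log2(CPM + 1) scale (x axes differ between panels) for 7SL, 7SK, 18S and 4 other ribosomal RNAs, with blue for p53+/+, orange for p53-/- and a grey line joining the 2 lines. 18S lies to the right of 0 in both lines at each stage, whereas 28S lies to the left in [P] and [R].

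The mitochondrial 16S rRNA, RNR2, is not one of the members and was tested across all entries. The list that holds it was also chosen with earlier results of these data known, so its test is not free of that choice. In [B], 23 of 28 p53+/+ cells had more RNR2 than the highest [N] cell of their line, but 4 had less than the lowest, 1 of them no count. In the p53-/- line 6 of 8 cells of [B] lay above and 0 below. Summed over cells, RNR2 had 6367 and 11365 CPM in [N] and 43958 and 52139 CPM in [B] (p53+/+ and p53-/-). In edgeR's quasi-likelihood test on these sums, RNR2 rose from [N] to [B] by 2.44 (log2 fold change, SE 0.40, adjusted p = 0.0357, Benjamini-Hochberg over 19894 entries), where 0.658% of entries were called. Over 19 alternative fits its adjusted p ran from 7.3e-08 to 0.256, and it was called in 9 of them. RNR2 was not called with sums per title number (edgeR adjusted p = 0.0817) or with only the study's own cells (edgeR adjusted p = 0.0681). Its log2 fold change stayed between 2.16 and 2.92 over the 19 fits. Among the 10 that each left out a sum, it was called in 2, and the call was also lost without a sum of [P] or [R], at adjusted p of 0.0628 to 0.0695 by edgeR. In [S] the log2 fold change of RNR2 was 2.67 (SE 0.40), with an adjusted p of 0.0677. The mitochondrial 12S rRNA, RNR1, had 1.04 (SE 0.50) in [B] and 0.96 (SE 0.50) in [S], with adjusted p of 0.296 and 0.419. RNA18SN2 was also called in [B] and in [S], but its sequence is that of RNA18SN3 and RNA18SN4, so its call is not independent of the choice of members. Of 14 ribosomal entries tested, none was called in [P] or [R] or from [S] to [R] by edgeR.

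The spread between cells went with the number that opens a cell's title. The 19 title numbers took 64.3% of the variance of log2(CPM + 1) of 7SL over all cells, 73.2% of that of 18S and 36.5% of that of 7SK. The 10 groups of stage and line took 28.5%, 27.1% and 23.04%, though a larger number of groups takes a larger share by construction. Within [B], the median 7SL level of a title number ran from 118 to 18179 CPM over 14 title numbers, and 18S ran from 0.432 to 770 CPM. Within [S], 7SL ran from 327 to 16530 CPM and 18S from 0.105 to 1561 CPM over 12 title numbers, and the lowest and highest of both stages were title numbers with 1 cell of that stage. The part of the title number in the stage differences was not tested beyond the values below, and for [R] the 2 cannot be told apart, since its 2 title numbers, 1 for each line, occur in no other stage.

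**Figure D4:**
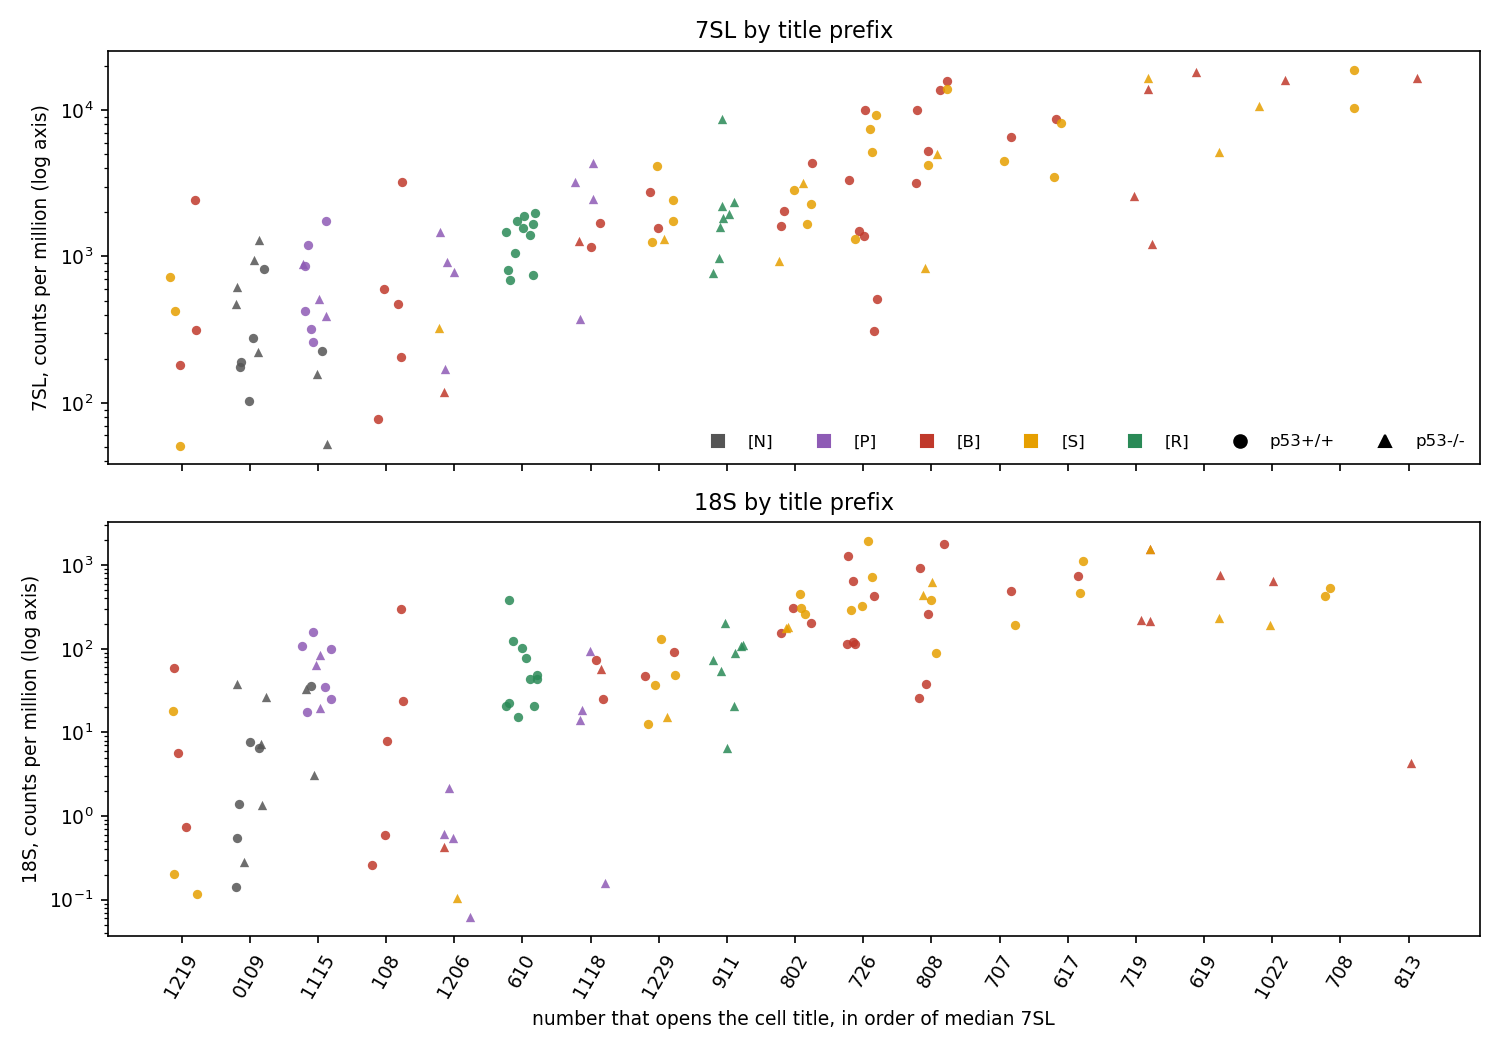
Level of 7SL (top) and 18S (bottom) in each cell (CPM, log axes) by the number that opens the cell's title, ordered by median 7SL, with colour for the stage, circles for p53+/+ and triangles for p53-/- cells. Within [B] the title numbers span medians from 118 to 18179 CPM of 7SL, and the [N] cells, all but 3 of them under title number 0109, lie towards the left.

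Where stages shared a title number, the comparison could be made within it. [N] shared only title number 1115, with [P]. There the 6 p53+/+ cells of [P] had a median of 640 CPM of 7SL and the single [N] cell 226 CPM, and the 3 p53-/- cells of [P] had 512 CPM and the 2 [N] cells 105.1 CPM. On the log2(CPM + 1) scale these were differences of 1.41 and 2.48. For 18S they were 0.71 and 2.45 and for RN7SK 0.92 and 1.76, so that all 3 families were higher in [P] than in [N] in both lines. Neither [B] nor [S] shared a title number with [N], so their differences from [N] and those between title numbers cannot be told apart. [S] and [B] shared a title number and line in 11 cases. In these, 7SL was higher in [S] in 5 and lower in 6 (median difference -0.02), 18S was higher in 3 and lower in 8 (median -0.52), and RN7SK was higher in 5 and lower in 6 (median -0.72). In the 2 title numbers that [B] shared with [P], both of the p53-/- line and each with 1 [B] cell, 7SL and RN7SK were lower in [B], and 18S was higher in 1 and lower in 1. [S] shared 1 title number with [P], with 1 cell of [S], and there the differences were -1.37 for 7SL, -0.51 for 18S and 1.51 for RN7SK.

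Cells high in 7SL were often high in 18S. Over all cells, log2(CPM + 1) of 7SL correlated with that of 18S at r = 0.72 (Spearman 0.71) and, after removal of the mean of each stage and line, at r = 0.65. For 7SL and 7SK r was 0.44 and within groups 0.34, and for 7SK and 18S it was 0.10 and -0.07. These are descriptions, since cells share title numbers, libraries and the total that CPM divides by. Of the 29 cells with the most 7SL, 12 were in [B] and 15 in [S], and 19 were also among the 29 cells with the most 18S. Of the 29 cells with the most 7SK, 14 were in [B], 10 in [S] and 4 in [P], and none was in [R]. With the log10 of the total count, r was -0.12 for 7SL, -0.21 for 7SK and 0.13 for 18S, and with the number of detected genes -0.08, 0.05 and -0.08. After removal of the mean of each stage and line, the Spearman coefficient with the log10 total was -0.29 for 7SL, -0.33 for 7SK and 0.14 for 18S. In single groups of stage and line, r of 7SL with the log10 total ran from -0.74 ([P] p53+/+, 6 cells) to -0.01 ([S] p53+/+, 21 cells). Median totals and detected genes were 29467817 and 14746 in [N], 43879304 and 16333 in [P] and 30069578 and 15742 in [B]. In [S] and [R] they were 34794878 and 13281.5 and 46496380 and 13754. The part of depth in the stage differences was not tested beyond the values from thinned cells given below.

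Among 6724 entries with a mean of at least 20 CPM, those whose log2(CPM + 1) was most like that of 7SL over all cells were SLCO5A1 (r = 0.78), SF3A2 (r = 0.76), RNA45SN2 (r = 0.66), RNA45SN4 (r = 0.64) and METRN (r = 0.63). The 95th percentile of r over all these entries was 0.30. After removal of the mean of each stage and line, SF3A2 (r = 0.78) and SLCO5A1 (r = 0.73) stayed first and were followed by the ribosomal protein genes RPL18, RPL8 and RPLP1 (r = 0.61 to 0.63). For 7SK the order was RNR1 (r = 0.55), CD81, TRNS1, LOC107984974 and RNA45SN5 (r = 0.52), and within groups RNR1 (r = 0.58), SNHG3, KHSRP, RNA45SN5 and RNA45SN4 (r = 0.45). For 18S it was MAP2K2 (r = 0.66), CDC37, SLC52A2, METRN and MAF1 (r = 0.63), and within groups GAPDH (r = 0.65), MAF1, SLC52A2, CLPP and SDF4 (r = 0.62). METRN was among the 5 closest to both 7SL and 18S.

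The proteins that bind, make or process these RNAs were counted from lists of 82 genes, of which 81 passed the filter on low counts. For this, the cells of a stage and line were added up to 10 sums in all, and all entries were tested together. By edgeR's quasi-likelihood test, 0 of the 81 partner genes changed (adjusted p below 0.05) in any of 6 comparisons, where 0.0201% of all entries were called from [N] to [P], 0.658% to [B] and 0.0704% to [S], and 0% were called to [R]. From [S] to [R] 0.0201% of all entries were called, and between the lines 0.206%. At an unadjusted p below 0.05, the partner genes numbered 18 in [P] against [N] (background 11.9%), 28 in [B] (background 18.5%), 16 in [S] (background 13.3%) and 10 in [R] (background 8.60%). There were 18 from [S] to [R] (background 15.1%) and 9 between the lines (background 13.9%). By DESeq2 the partner genes called were 4 in [P] (background 4.26%), 14 in [B] (background 11.4%), 4 in [S] (background 5.02%) and 1 in [R] (background 2.06%). DESeq2 called 6 from [S] to [R] (background 7.28%) and 4 between the lines (background 8.55%). With the line as a block in edgeR, 5 partner genes fell from [N] to [B] (background 3.40%) and 1 fell from [S] to [R] (background 0.382%). The 5 that fell with the block were WDR75, RIOK2, POLR1B, UTP15 and TBP, and the 1 was TAF1D, of which WDR75 and TAF1D are named after their values were seen.

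The factors that process 18S were mostly below [N] in [P] and [B]. Of 25 tested, 23 had a negative log2 fold change in [B] (median -0.88, against 0.20 over all tested entries) and 23 in [P] (median -0.76, against 0.15), with 0 called in either. RIOK2, a kinase that acts late in the maturation of the small subunit, had 103.5 and 95.8 CPM in the [N] sums and 39.0 and 40.1 CPM in the [B] sums (p53+/+ and p53-/-). Its log2 fold change in [B] was -1.33 (SE 0.29, edgeR adjusted p = 0.0700). UTP15, a protein of the processome that cuts the precursor, had 89.6 and 80.4 CPM in [N] and 40.1 and 27.97 CPM in [B], a log2 fold change of -1.32 (SE 0.31, edgeR adjusted p = 0.0782). In [R] the median of the list was -0.13, with 17 of 25 negative and 0 called. Of 11 subunits and initiation factors of RNA polymerase I, 9 were negative in [B] (median -0.61). POLR1B, its second largest subunit, had a log2 fold change of -1.53 (SE 0.44, edgeR adjusted p = 0.118) and TAF1A, a subunit of its promoter selectivity factor, of -1.49 (SE 0.43, edgeR adjusted p = 0.121). These 4 genes missed the threshold in the fit without a block, and RIOK2, UTP15 and POLR1B passed it with the line as a block.

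The machinery that makes 7SL and 7SK showed no common direction. Of 11 subunits particular to RNA polymerase III, 4 were positive and 7 negative in [B] (median -0.20) and likewise in [S] (median -0.21). POLR3G, a subunit of that polymerase, had 132 and 104.3 CPM in [N] and 63.0 and 51.2 CPM in [S] (p53+/+ and p53-/-), a log2 fold change of -1.05 (SE 0.31, edgeR adjusted p = 0.259). POLR3K, a small subunit of the same enzyme, had -0.92 (SE 0.33, edgeR adjusted p = 0.563) in [R]. Of 17 initiation factors, 8 were positive and 9 negative in [B]. TBP, which all 3 nuclear polymerases use, had 78.1 and 98.8 CPM in [N] and 27.7 and 30.4 CPM in [B], a log2 fold change of -1.61 (SE 0.39, edgeR adjusted p = 0.0851). GTF3C6, a subunit of TFIIIC, had -1.04 (SE 0.29, edgeR adjusted p = 0.563) in [R]. The La protein SSB, which binds the ends of new polymerase III transcripts, had -0.82 (SE 0.27, edgeR adjusted p = 0.563) in [R], and RO60, which binds misfolded and Y RNAs, had -0.47 (SE 0.30, edgeR adjusted p = 0.437) in [B].

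None of the proteins of the 2 particles was called by edgeR in the fit without a block. All 6 proteins of the signal recognition particle had a negative log2 fold change in [B] (median -0.48, against 0.20 over all tested entries), with 0 called. Summed CPM was lower than in [N] in both lines for SRP9, SRP54 and SRP68, whereas SRP14, SRP19 and SRP72 were higher in 1 line and had log2 fold changes of -0.07, -0.03 and -0.07. SRP68 had 219 and 281 CPM in [N] and 135 and 119 CPM in [B] (p53+/+ and p53-/-), a log2 fold change of -0.98 (SE 0.30, edgeR adjusted p = 0.137). SRP54, the protein that binds the signal sequence, had 128 and 165 CPM in [N] and 82.2 and 76.9 CPM in [B], a log2 fold change of -0.88 (SE 0.30, edgeR adjusted p = 0.163). For the receptor of the particle, SRPRA had 1.10 (SE 0.44, edgeR adjusted p = 0.563) in [R] and SRPRB -0.34 (SE 0.30, edgeR adjusted p = 0.674) in [S]. Of the 4 proteins of the 7SK particle, 2 were positive and 2 negative in [B] and in [S], and all 4 were negative in [R] (median -0.63), with 0 called. MEPCE, which caps 7SK RNA, had 22.2 and 24.8 CPM in [N], 18.5 and 29.5 CPM in [S] and 7.30 and 8.14 CPM in [R]. Its log2 fold change to [R] was -1.60 from [N] (SE 0.36, edgeR adjusted p = 0.563) and -1.63 from [S] (SE 0.36, edgeR adjusted p = 0.107). HEXIM1, an inhibitor of P-TEFb, had -0.59 (SE 0.31, edgeR adjusted p = 0.610) in [R]. In P-TEFb itself, CDK9 had -0.72 (SE 0.29, edgeR adjusted p = 0.218) and CCNT2 -0.58 (SE 0.32, edgeR adjusted p = 0.372) in [B].

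**Figure D5:**
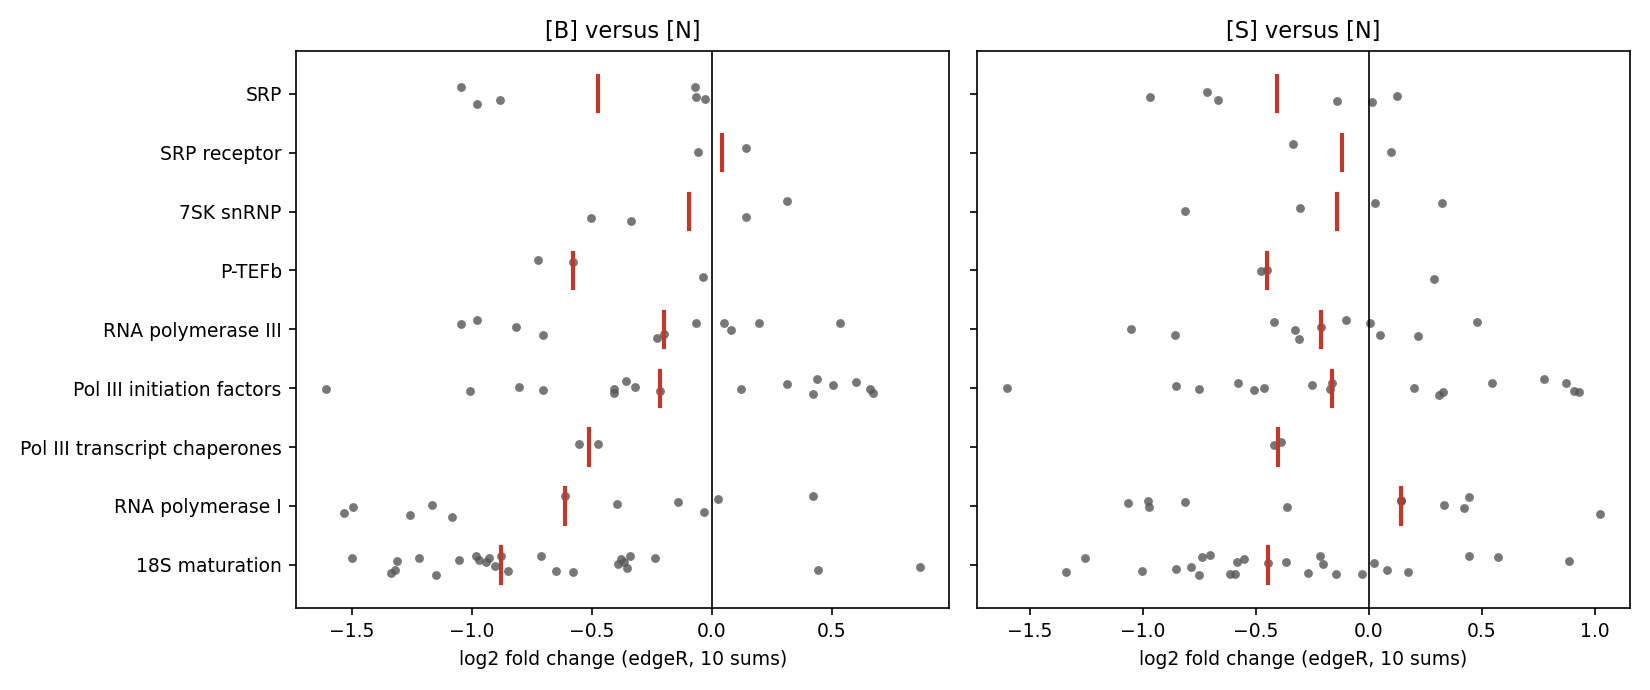
Log2 fold change from [N] to [B] (left) and to [S] (right) of the 81 tested partner genes by list (edgeR on 10 sums), with a grey point for each gene, a red bar at the list's median and a line at 0. The medians of the 18S maturation list are -0.88 in [B] and -0.45 in [S], and no point passed an adjusted p of 0.05.

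Other short RNAs were at much lower levels or did not pass the test. Of 17 other RNA polymerase III transcripts in the table, 2 had a mean of at least 1 CPM, BCYRN1 (mean 5.59 CPM, counted in all but 3 cells) and RMRP (mean 1.62 CPM, in 71 cells). RPPH1, the RNA of RNase P, had a mean of 0.650 CPM. None of the 12 that could be tested was called by edgeR in any of the 6 comparisons. BCYRN1, a brain cytoplasmic RNA related in sequence to 7SL, had a log2 fold change of 0.33 (SE 0.90, edgeR adjusted p = 0.895) in [B] and 2.01 (SE 0.94, edgeR adjusted p = 0.387) in [S]. RMRP, the RNA of RNase MRP, had 3.50 (SE 1.495, edgeR adjusted p = 0.248) in [B], and RPPH1 had 5.32 (SE 2.57, edgeR adjusted p = 0.301). Of 16 spliceosomal snRNA entries in the table, which RNA polymerase II makes for the most part, none had a mean of 1 CPM, and the highest were RNU1-4 (0.213 CPM), RNU1-2 (0.182 CPM) and RNU12 (0.143 CPM). None of 13 tested snRNAs was called by edgeR in any comparison, and their log2 fold changes from [N] to [B] ran from -1.36 to 2.90.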

How the data were processed

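Single HCT116 cells were picked by hand and amplified with a full-length mRNA kit (SMART-seq). The deposited values are raw read counts per gene entry and cell, which the authors made from reads that fastp had trimmed and HISAT2 2.0 had placed on GRCh38, with StringTie for expression. The submitters' processing notes also name RSEM, Bowtie2 and DESeq2. The tool that wrote the counts, and how it treated reads that fit several copies, are not given in the sources used here. Molecules were not tagged, no doublet caller was run, and droplet data of the study were not analysed here. Columns of samples outside the series numbered 0.

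The members and gene lists were chosen with earlier results of these data known. CPM is a count divided by the cell's total. Stage differences were taken between medians of log2(CPM + 1) within each line, so n = 2 lines, and p-values measure the spread between 10 sums of stage and line only. Partner genes were tested with edgeR 4.0.16 (R 4.3.3, quasi-likelihood, TMM, Benjamini-Hochberg) after filterByExpr with a minimum count of 10 and a count in at least 12 cells, with DESeq2 1.42.0 as an alternative. Thinned cells were drawn down to 15435056 counts each, which left out 12 shallower cells. Other steps used Python 3.11.15, numpy 2.4.6, pandas 2.3.3, scipy 1.17.1 and matplotlib 3.10.9. Named were all 7 members, up to 4 genes called per list and comparison or else the 2 with the smallest p against [N], the 3 RNAs of highest mean CPM in each RNA list, and the 5 entries most correlated with each family. Sums of the same line come from one line, so the lines pair the sums. Their deviations from the stage means correlated at 0.048 to 0.395 (median 0.223), with 9 of 10 pairs of stages over 0.1. On simulated counts for [S] against [N] over 19809 genes, the test recovered 59.6% of 99 genes changed by 4 log2 units and 19.2% of 99 changed by 2, with 3 false calls. Some sequences and levels are not reported here.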

Additional observations from a re-analysis of the deposited data

Results flagged for a closer look

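Single cells lay far from the rest of their group in 4 of the 54 sets of 4 to 10 cells examined. Chance alone gives about 5% for a single set, but the sets overlap because a family's sum contains its copies. The 4 are therefore not independent, and nothing is read from their number. One p53-/- cell of [R] had 3626 CPM of RN7SL1 (next highest cell 1021 CPM), 4690 CPM of RN7SL2 (next 1244 CPM) and 8666 CPM of 7SL in all (next 2347 CPM). One p53-/- cell of [B], of title number 1206, had 1.16 CPM of RN7SL3, where the next lowest cell had 53.2 CPM.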

How the results depend on the processing

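Among the differences of 7SL, 7SK and 18S, 4 of 57 alternatives moved a 7SL difference by more than its spread, 10 of 57 a 7SK difference and 10 of 57 an 18S difference. Leaving out the 3 title numbers that stood apart, an alternative chosen after seeing the data, gave 4.37 for 7SL, 2.18 for 7SK and 5.07 for 18S in [B] against [N], and 2.26 for 7SK in [S]. Summing counts over cells gave 3.90 for 7SL in [B], 2.63 and 1.96 for 7SK in [B] and [S], and 4.35 and 2.36 for 18S in [B] and [R]. A pseudocount of 10 gave 0.28, 0.47, 0.70 and -0.61 for 7SK in [P], [B] and [S] against [N] and in [R] against [S], and 3.46, 3.996 and 2.17 for 18S in [B], [S] and [R]. TMM library sizes gave 2.05 for 7SK in [S] and 4.70 and 3.26 for 18S in [B] and [R], and thinned cells 2.10, 5.39 and 3.996. For 7SL from [S] to [R], leaving out cells under 10000 genes gave -0.54 and the study's own cells, of 1 line, -1.52. The causes were not tested. Leaving out a line gave 7SL differences from [N] of 0.93 to 1.54 in [P], 3.17 to 3.68 in [B], 2.75 to 4.08 in [S] and 2.01 to 2.82 in [R].

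For the partner genes, 18 alternatives changed the count of 0 and 96 kept it. DESeq2 called 4, 14, 4 and 1 in [P], [B], [S] and [R] against [N], 6 from [S] to [R] and 4 between lines. With no filter edgeR called 7 in [B], 2 in [S], 3 from [S] to [R] and 2 between lines, and with sums per title number 2 in [B] and 4 between lines. With the line as a replicate block it called 5 in [B] and 1 from [S] to [R]. The block, which pairs the sums of a line, changed no other partner count. A minimum count of 100 and thinned cells each gave 1 between lines. Leaving out a sum gave 0 to 1 in [B], where TBP was called without either [S] sum. Over all genes, the 131 calls of edgeR in [B] became 2134 by DESeq2, 1276 with no filter, 217 at a minimum count of 100, 72 by library size alone, 89 with thinned cells, 677 with the block, 56 with the study's own cells and 320 without the 3 title numbers, 3 and 14 without a [B] sum, and 0 without either [N] sum.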
